A study of Saccharomyces cerevisiae with 25 samples.

Results

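Late phosphate starvation was compared with middle starvation in budding yeast: 7 late libraries, from 255 to 330 min and at 360 min without phosphate, were set against 7 middle libraries, from 135 to 180 min and from 210 to 240 min. These are 14 of the 25 RNA libraries of a single time course sampled each 15 min, grouped by time. The windows were chosen with earlier results of these data known. Of the remaining 11, the libraries at 195 and 345 min were left out for their low depth, and the 1 high phosphate library at 0 min and the 8 early libraries from 15 to 120 min appear only as side values. All libraries share 1 genotype, labelled delta-phm3 and pho84pr-YFP, in the BY4741 background, so late and middle do not differ in genotype. No strain with the gene was compared here. Whatever else changed along the course cannot be told apart from time. No time point has a replicate and the labels do not name separate cultures. Neighbouring times stood in for replicates and were taken as independent, though they are ordered in time. The p-values thus reflect only how these libraries scatter, which may be technical or may be change within a window. They are not calibrated for replicate cultures.

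Inorganic phosphate shortage in yeast is read by the PHO pathway, in which the inhibitor Pho81 stops the Pho80-Pho85 kinase and the transcription factor Pho4 then enters the nucleus. Pho4 turns on secreted phosphatases, high-affinity transporters and the vacuolar VTC complex, which makes polyphosphate. Cells that run short of a nutrient for long also draw on a general stress programme driven by Msn2 and Msn4, shift towards respiration and storage, slow ribosome production and tend to arrest before DNA replication.

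Values are log2 RPM, the log2 of reads per 1000000 listed reads, and genes under 10 reads in a library have no value there. Depth implied by the values ran from 548474 to 1138926 reads in late libraries and from 518466 to 1048845 in middle libraries, a difference within the spread (exact permutation test, two-sided, p = 0.431). The median level of genes listed in all 14 libraries averaged 6.50 late and 6.44 in the middle (exact permutation test, two-sided, p = 0.0233). Listed genes, the ribosomal protein share and the share of the 10 most abundant genes gave p = 0.823, 0.714 and 0.203 in the exact permutation test. Ribosomal protein genes took 4.39% to 5.94% of reads late and 4.50% to 8.56% in the middle, with the 135 min library as the high one, and 34.3% at 0 min. VTC4, the current name of PHM3, had reads in every library, at a lowest, median and highest of 7.88, 7.99 and 8.21 late and 7.66, 7.92 and 8.06 in the middle. It did not pass the test between windows (difference 0.16 ± 0.10 SE, limma adjusted p = 0.311), and the labels do not say which stretch was deleted, so the libraries are called labelled phm3_del. From 0 to 360 min VTC4 went from 7.92 to 8.15 log2 RPM. The genes VTC1, VTC2 and VTC3 went from 8.82, 7.79 and 7.72 to 11.58, 9.34 and 10.62. The reason for this gap was not tested.

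Between the windows 23 of 37 general stress genes and 12 of 33 respiratory genes rose. In the other direction 7 of 18 methionine and sulfur genes, 9 of 32 proteasome genes and 6 of 18 G1/S genes fell. These lists, too, were chosen with earlier results of these data known. Of 4923 genes with a value in 5 or more of the 7 libraries on both sides, 318 (6.46%) were higher late and 202 (4.1%) were lower late at an adjusted p under 0.05 (limma, Benjamini-Hochberg over all tested genes). The differences were small in most genes: the median called rise was 0.56 log2 units and the median called fall was -0.49, with 29 rises and 2 falls of at least 2-fold. In 67 called genes (1.36% of tested genes) all 7 late values stood above all 7 middle values, and in 56 (1.14%) all stood below. Across all tested genes the median difference was 0.04. Setting each library to the same median tested gene turned the balance of calls, with 35.4% of calls higher (194 higher and 354 lower) in place of 61.2%, so the balance rests on the scaling. Centring on the genes listed in all 14 libraries gave 46.7% (234 higher and 267 lower). With the early and high phosphate libraries in the fit, which widened the shared spread from a median SE of 0.14 to 0.18, 65 of the higher and 44 of the lower calls were kept. The counts also moved with single libraries, to 189 higher without 360 min, 190 without 165 min, 117 lower without 165 min and 125 lower without 360 min.

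Of the 15 largest rises without overlap, 8 were members of the general stress list. HXT5, a hexose transporter known from slowly growing cells (chromosome VIII, 294669 to 296447, R64), stood at 7.05, 7.59 and 8.34 log2 RPM late (lowest, median and highest of 7) and at 4.80, 5.42 and 6.24 in the middle. The windows did not overlap, and the late level was 4.53-fold higher (difference 2.18 ± 0.23 SE, limma adjusted p = 0.00012). HXT5 was not listed at 0 min and was listed in 4 of 8 early libraries, at 2.65 to 4.28. TKL2, a minor transketolase of the pentose phosphate pathway, had 6.51, 7.36 and 8.20 late and 4.10, 5.25 and 5.99 in the 6 middle libraries that list it. All listed late values lay above all listed middle values, with a difference of 2.17 ± 0.28 SE (limma adjusted p = 0.000371).

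A pair of hydrophilins, small proteins known for protecting cells in water loss, climbed furthest within the late window. The hydrophilin STF2 went the other way between the windows and was not called. SIP18 (chromosome XIII, 611016 to 611255) had 9.45, 10.67 and 11.60 log2 RPM late and 8.22, 8.62 and 9.16 in the middle. GRE1 had 9.36, 10.41 and 11.24 late and 7.85, 8.56 and 9.05 in the middle. Neither gene overlapped between the windows, and the differences were 1.86 ± 0.25 for SIP18 (limma adjusted p = 0.000406) and 1.70 ± 0.26 for GRE1 (limma adjusted p = 0.00127). At 360 min both stood at their highest of the 14 libraries. The open reading frame YMR175W-A, annotated just downstream of SIP18 on the same strand, differed from SIP18 by -0.22 to -0.07 in the 14 libraries, so its call (difference 1.92 ± 0.26 SE) is not known to be a separate reading.

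**Figure D1:**
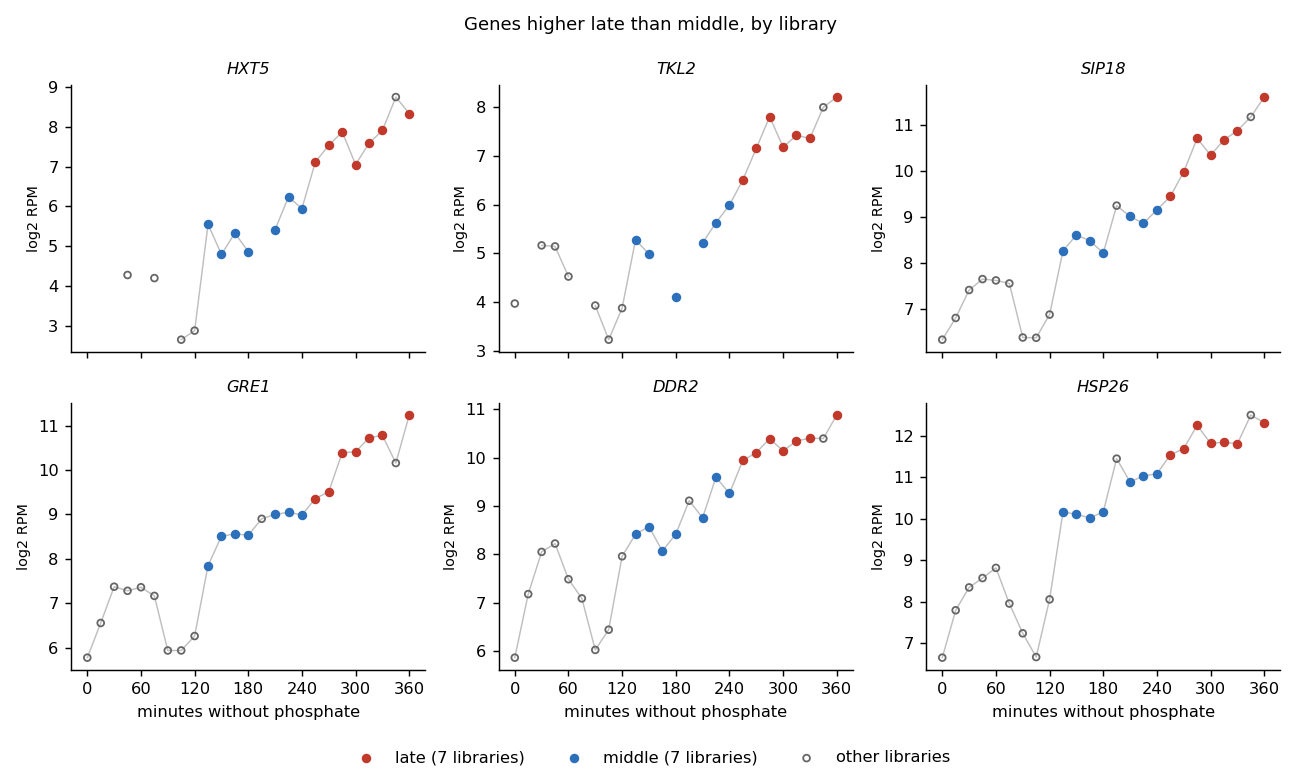
Level in log2 RPM of HXT5, TKL2, SIP18, GRE1, DDR2 and HSP26 in each library by minutes without phosphate, with late libraries in red, middle libraries in blue and the others as open circles. In each panel all listed late points stand above all listed middle points, and SIP18 and GRE1 are still climbing in the late window.

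DDR2, a gene induced by many stresses, had 9.95, 10.35 and 10.88 log2 RPM late and 8.07, 8.57 and 9.60 in the middle. HSP26, a small heat shock protein that holds unfolded proteins, had 11.54, 11.82 and 12.32 late and 10.02, 10.17 and 11.08 in the middle. The windows did not overlap for either gene, and the late levels were 3.01-fold and 2.64-fold higher (limma adjusted p = 0.000371 and 0.000399). Other non-overlapping rises, each between 2.03-fold and 2.87-fold, were CTT1 (cytosolic catalase), FMP45 (a plasma membrane protein), PAI3 (the inhibitor of vacuolar proteinase A), PUT4 (the proline permease), SPI1 and HPF1 (cell wall proteins), YRO2, FMP16 and YCL048W-A. HPF1 was a whole number of reads in 0 of 14 libraries, so its reads are shared with similar genes. At 0 min these genes stood well below their middle levels: HSP26 had 6.65 log2 RPM and DDR2 had 5.86.

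Msn2 and Msn4 bind the sequence AGGGG, and 5 promoters are shown for that reason. They belong to the 5 largest non-overlapping rises among genes with a standard name that were listed in all 14 libraries. The systematic-name genes YMR175W-A and YCL048W-A, which rose more than HSP26, are not shown. Each window runs 5′ to 3′ on the strand of the gene, from 400 to 101 bases before the annotated start (RefSeq R64), with each AGGGG or its reverse complement CCCCT in capitals.
HXT5, chrVIII:296548-296847 (minus strand): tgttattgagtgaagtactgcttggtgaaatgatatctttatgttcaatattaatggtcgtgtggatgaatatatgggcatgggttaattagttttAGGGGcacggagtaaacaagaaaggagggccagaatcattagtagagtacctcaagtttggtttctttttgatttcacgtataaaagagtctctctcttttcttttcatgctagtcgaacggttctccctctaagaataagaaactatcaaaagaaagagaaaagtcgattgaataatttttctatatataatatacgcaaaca
SIP18, chrXIII:610616-610915 (plus strand): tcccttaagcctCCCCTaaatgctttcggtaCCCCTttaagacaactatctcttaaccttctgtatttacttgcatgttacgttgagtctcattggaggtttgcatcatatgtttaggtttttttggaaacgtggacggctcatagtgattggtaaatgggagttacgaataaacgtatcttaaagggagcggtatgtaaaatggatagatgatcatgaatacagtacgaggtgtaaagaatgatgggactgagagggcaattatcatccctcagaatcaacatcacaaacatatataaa
GRE1, chrXVI:129239-129538 (minus strand): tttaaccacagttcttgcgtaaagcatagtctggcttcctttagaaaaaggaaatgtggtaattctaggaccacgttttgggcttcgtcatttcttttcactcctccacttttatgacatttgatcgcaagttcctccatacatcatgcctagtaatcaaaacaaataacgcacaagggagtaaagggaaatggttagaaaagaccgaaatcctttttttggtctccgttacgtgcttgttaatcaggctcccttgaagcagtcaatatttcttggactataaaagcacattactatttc
DDR2, chrXV:231856-232155 (minus strand): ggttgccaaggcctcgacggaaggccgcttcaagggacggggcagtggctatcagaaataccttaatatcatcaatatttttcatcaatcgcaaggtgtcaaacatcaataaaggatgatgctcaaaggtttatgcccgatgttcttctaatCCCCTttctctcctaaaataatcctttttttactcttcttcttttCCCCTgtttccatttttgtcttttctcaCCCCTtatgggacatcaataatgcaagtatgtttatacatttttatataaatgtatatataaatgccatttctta
HSP26, chrII:381630-381929 (plus strand): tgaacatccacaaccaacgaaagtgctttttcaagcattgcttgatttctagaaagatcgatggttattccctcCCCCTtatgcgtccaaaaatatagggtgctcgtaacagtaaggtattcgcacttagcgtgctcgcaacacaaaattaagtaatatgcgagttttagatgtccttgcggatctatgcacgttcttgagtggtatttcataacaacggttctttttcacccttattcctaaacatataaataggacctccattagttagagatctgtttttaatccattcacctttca
HXT5 and HSP26 held 1 match each, SIP18 held 2, DDR2 held 3 and GRE1 held 0. The same window held AGGGG on either strand in 1412 of 6001 R64 protein-coding genes (23.5%) and in 24.1% of tested genes with a window. Among called genes it was in 137 of 309 higher late (44.3%) and in 36 of 193 lower late (18.7%). TKL2 held 0 matches. These are counts of letters and not of bound sites.

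The general stress list was the one with the most members called. Of 37 tested members 23 rose and 0 fell, with a median difference of 0.67 beside 0.04 over all tested genes. Beyond the genes above, the risers included ALD3 (an aldehyde dehydrogenase, 1.18), NQM1 (a transaldolase, 1.14), HSP42 (a small heat shock protein, 0.89), OM45 (a mitochondrial outer membrane protein, 0.83), YGP1 (a secreted glycoprotein, 0.72) and HSP12 (a membrane-binding stress protein, 0.56). STF2, a hydrophilin linked to the mitochondrial ATPase inhibitor, had a difference of -0.47 and was not called. With each library set to the same median tested gene, 19 of the 37 were called, and 8 of the 37 with the early libraries in the fit. Leaving out each library in turn gave 16 to 24 risers. The list's median gene overlapped slightly between windows, at -0.01 to 0.59 late and -0.61 to 0.01 in the middle. MSN4 itself, which encodes 1 of the activators, had 5.33, 5.81 and 6.03 log2 RPM late and 4.81, 5.19 and 5.60 in the middle, overlapping at the edges (difference 0.49 ± 0.15 SE, limma adjusted p = 0.0409). The MSN4 call was lost in 12 of the alternatives tried.

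**Figure D2:**
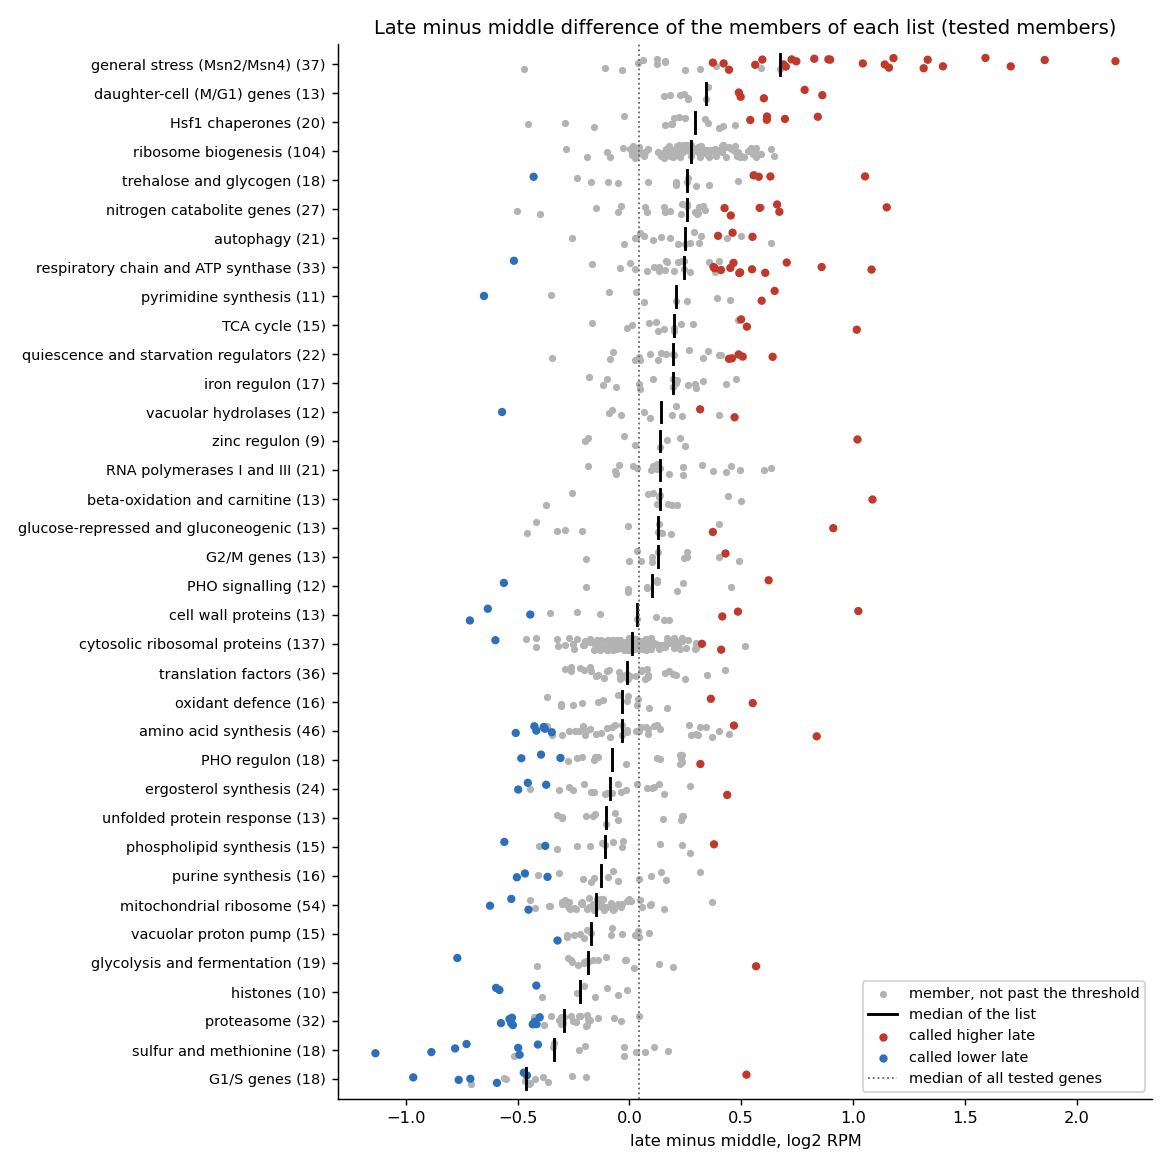
Late minus middle difference in log2 RPM of every tested member of each gene list with at least 9 tested members, ordered by the list median (black bar), with called members in red (higher late) and blue (lower late). The general stress list stands highest with a median of 0.67, and the G1/S list lowest with a median of -0.46.

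Heat shock factor targets moved in part. Of 20 tested Hsf1 chaperones 5 rose and 0 fell, among them SSA3 (0.84) and SSA4 (0.61), the inducible cytosolic Hsp70 genes, and HSP104 (0.54), the disaggregase. Without the 150, 165, 180, 285 or 360 min library 2 were called, and without 135 min 8, and either centring gave 3. The mitochondrial chaperonin genes HSP60 and HSP10 had differences of -0.29 and -0.45 and were not called. Trehalose and glycogen genes gave 4 rises and 1 fall among 18 tested, with PIG2 (a putative regulator of glycogen synthase, 1.05), SGA1 (glucoamylase, 0.63) and ATH1 (acid trehalase, 0.58) higher and PGM1 (a phosphoglucomutase, -0.43) lower. The HSP78 and PGM1 calls were each lost in 15 of the alternatives. Antioxidant genes gave 2 rises of 16 tested (12.5%, beside 6.46% of all tested genes). These were CCP1 (cytochrome c peroxidase, 0.55) and SOD2 (mitochondrial superoxide dismutase, 0.36). The list median was -0.03, with 10 of the 16 differences negative. The SOD2 call was lost in 11 alternatives, and either centring gave 1 rise and 1 fall.

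Respiratory genes rose in part. Of 33 tested nuclear genes of the respiratory chain and ATP synthase 12 rose and 1 fell, with a median of 0.24. CYT1, encoding cytochrome c1, had 8.58, 8.83 and 9.04 log2 RPM late and 7.93, 8.03 and 8.48 in the middle, with no overlap (difference 0.70 ± 0.12 SE, limma adjusted p = 0.00221). NDE2, an external NADH dehydrogenase, had 5.74, 6.18 and 6.48 late and 4.27, 5.20 and 6.12 in the middle, an overlap of the windows (difference 1.08 ± 0.22 SE, limma adjusted p = 0.00677). The 1 fall was CYC1, the main cytochrome c, with a difference of -0.52 that was lost in 8 alternatives. The list's median gene did not overlap between windows, at 0.07 to 0.22 late and -0.30 to 0.06 in the middle, relative to each gene's mean of the 14 libraries. The count of risers was 8 with each library set to the same median tested gene, 8 to 13 with a library left out, the low value at 150, 165 or 360 min, and 5 with the early libraries in the fit.

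Carbon genes were divided. TCA cycle genes gave 3 rises of 15 tested, SDH2 (1.02) and SDH4 (0.52), subunits of succinate dehydrogenase, and MDH1 (mitochondrial malate dehydrogenase, 0.50). The count was 1 without 165, 180, 285, 330 or 360 min and 1 with each library set to the same median tested gene, and the SDH4 call was lost in 14 alternatives and the MDH1 call in 7. ALD4, the mitochondrial aldehyde dehydrogenase, rose by 0.91 and PXA2, a subunit of the peroxisomal fatty acid transporter, by 1.09. In glycolysis 1 of 19 rose and 1 fell. HXK2, the main hexokinase in glucose, had 8.30, 8.55 and 8.82 log2 RPM late and 9.02, 9.29 and 9.48 in the middle, with no overlap (difference -0.77 ± 0.11 SE, limma adjusted p = 0.00056). TDH1, a glyceraldehyde-3-phosphate dehydrogenase known from non-growing cells, was higher late by 0.57 ± 0.14 SE (limma adjusted p = 0.0188), without overlap and with reads shared with similar genes in all 14 libraries. Of 54 mitochondrial ribosome genes 0 rose and 3 fell (MRPS8, MRPL20 and MRPL37), with a median of -0.15 and 47 of 54 negative, and 6 fell with each library set to the same median tested gene. The 8 mitochondria-encoded genes gave no tested member.

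Nitrogen-scavenging and recycling genes rose in part. Of 27 nitrogen catabolite genes 6 rose and 0 fell: PUT4 (1.15), PUT1 (proline oxidase, 0.66), UGA3 (an activator of GABA genes, 0.67), MEP3 (an ammonium permease, 0.58), and the GATA factors GAT1 (0.43) and GZF3 (0.45). The count of risers was 3 without the 165 or the 360 min library and 1 with the early libraries in the fit. PUT4 had 6.01, 6.32 and 6.50 log2 RPM late and 4.54, 5.06 and 5.65 in the middle, with no overlap. Of 21 autophagy genes 3 rose, ATG26 (0.55), ATG19 (a receptor for vacuolar enzymes, 0.46) and ATG33 (a mitophagy factor, 0.40). The count was 6 without 240 min, 5 without 135 min and 2 without 150, 165, 180 or 330 min, and 0 with the early libraries in the fit. The autophagy list's median gene stood at 0.05 to 0.22 late and at -0.22 to -0.01 in the middle. Vacuolar hydrolases gave 2 rises, AMS1 (vacuolar mannosidase) and PRB1 (proteinase B), and 1 fall, CPS1 (a carboxypeptidase), among 12. Both rises were lost in 15 alternatives each, and the list had 0 rises under either centring and without 150, 165, 180, 210, 285, 315, 330 or 360 min, and the CPS1 fall was lost without 165 or 360 min. VMA8 was the 1 of 15 vacuolar proton pump genes called, and it fell.

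Among starvation and quiescence regulators 5 of 22 rose and 0 fell. DOT6, a repressor of ribosome biogenesis genes, had 7.17, 7.41 and 7.74 log2 RPM late and 6.44, 6.76 and 7.05 in the middle, without overlap (difference 0.64 ± 0.11 SE, limma adjusted p = 0.00294). TPK2, a catalytic subunit of protein kinase A, was higher by 0.51, YAK1, a kinase that acts against that pathway, by 0.46, and SCH9, a growth kinase downstream of TORC1, by 0.45. The risers thus include genes that act for growth and against it. Their count was 2 without the 150 or 165 min library, 3 without 180, 210, 270, 285 or 300 min, and 1 without 360 min, and either centring gave 2.

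PHO regulon genes differed little in level between the windows, with more falls called than rises. Of 18 tested members 1 rose (5.6%) and 3 fell (16.7%), beside 6.46% and 4.1% of all tested genes. The median was -0.08, with differences from -0.48 to 0.32. With each library set to the same median tested gene 0 rose and 5 fell. With the early libraries in the fit 0 were called either way, so the PHO11 and PHO12 calls below were lost there. PHO5, the main secreted acid phosphatase (chromosome II, 429548 to 430951), had 12.59, 12.69 and 12.84 log2 RPM late and 12.18, 12.42 and 12.62 in the middle. The windows overlapped slightly, and the rise of 0.32 ± 0.10 SE (limma adjusted p = 0.0463) was lost in 14 alternatives. PHO11, another secreted acid phosphatase, had 10.67, 10.99 and 11.16 late and 11.21, 11.49 and 11.61 in the middle, and PHO12, its near copy, had 11.39, 11.65 and 11.83 late and 11.88, 11.95 and 12.15 in the middle. All late values of both lay below all middle values, with differences of -0.48 ± 0.10 SE and -0.39 ± 0.10 SE (limma adjusted p = 0.00725 and 0.0176). PHO11 was a whole number of reads in 0 of 14 libraries and PHO12 in 1, so reads are divided between such copies and the 2 falls are not known to be separate.

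Pho4 binds the core CACGTG, and the promoters of PHO5 and PHO11, which differ in direction, are shown with it in capitals (RefSeq R64, 400 to 101 bases before the annotated start, 5′ to 3′ on the strand of the gene).
PHO5, chrII:431052-431351 (minus strand): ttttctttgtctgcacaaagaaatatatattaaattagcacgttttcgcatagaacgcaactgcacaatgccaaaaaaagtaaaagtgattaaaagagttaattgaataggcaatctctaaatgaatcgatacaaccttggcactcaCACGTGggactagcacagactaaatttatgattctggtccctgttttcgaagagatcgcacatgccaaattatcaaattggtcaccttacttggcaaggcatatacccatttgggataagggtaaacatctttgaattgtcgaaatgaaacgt
PHO11, chrI:225060-225359 (plus strand): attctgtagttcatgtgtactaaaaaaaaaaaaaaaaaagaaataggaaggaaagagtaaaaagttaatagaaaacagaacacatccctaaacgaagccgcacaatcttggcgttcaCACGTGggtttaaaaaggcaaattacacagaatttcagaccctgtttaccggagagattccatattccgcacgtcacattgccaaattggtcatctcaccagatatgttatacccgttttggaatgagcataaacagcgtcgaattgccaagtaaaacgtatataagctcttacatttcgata
Each held 1 match. CACGTG, which reads the same on both strands, was in 13 of 20 PHO regulon windows (65.0%) and in 4.5% of all R64 windows. The PHO11 and PHO12 windows were identical at 283 of 300 bases (94.3%).

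**Figure D3:**
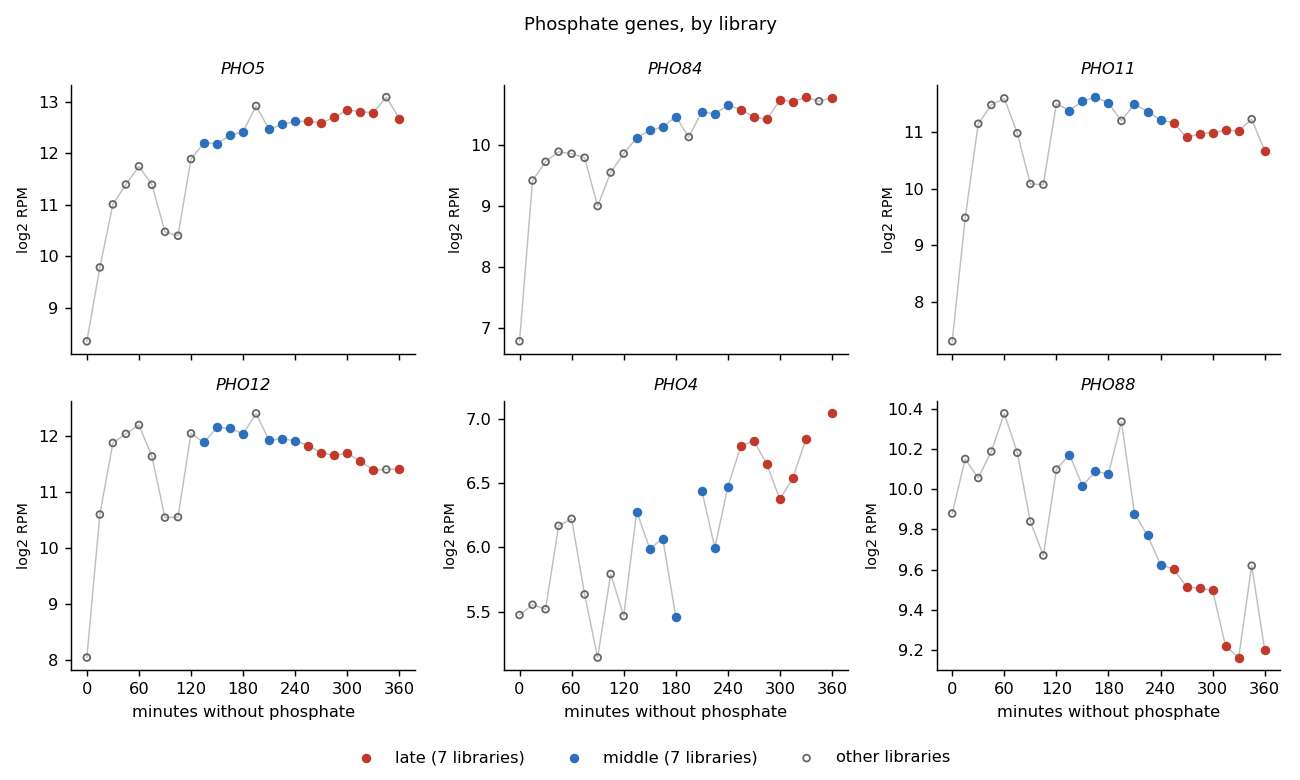
Level in log2 RPM of PHO5, PHO84, PHO11, PHO12, PHO4 and PHO88 in each library by minutes without phosphate, with late libraries in red, middle libraries in blue and the others as open circles. PHO11, PHO12 and PHO88 have all late points below all middle points, while PHO5, PHO84 and PHO4 overlap.

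The transporters PHO84 and PHO89 had differences of 0.23 ± 0.11 SE and 0.23 ± 0.13 SE and did not pass the test (limma adjusted p = 0.167 and 0.26). The late median of PHO84 was 10.70 log2 RPM, against 6.79 at 0 min. The VTC genes VTC1, VTC2 and VTC3 had differences of -0.14, -0.15 and -0.16, also not called. PHM6, whose function is not known, fell by 0.31 (limma adjusted p = 0.0489), a call lost in 15 alternatives. In PHO signalling 1 of 12 rose and 1 fell. PHO4, the activator, had 6.37, 6.79 and 7.04 late and 5.46, 6.07 and 6.47 in the middle (difference 0.62 ± 0.15 SE, limma adjusted p = 0.0153), an overlap of the highest middle and the lowest late library. PHO88, a membrane protein of the endoplasmic reticulum, had 9.16, 9.50 and 9.60 late and 9.62, 10.02 and 10.17 in the middle, without overlap (difference -0.56 ± 0.11 SE, limma adjusted p = 0.00685). PHO81 had late values above all middle values but a difference of 0.22 ± 0.08 SE that was not called (limma adjusted p = 0.0917).

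Methionine and sulfur genes, which supply the methyl donor of the cell, fell in part. Of 18 tested 0 rose and 7 fell, with a median of -0.34. MET6, methionine synthase (chromosome V), had 8.88, 9.02 and 9.16 log2 RPM late and 9.33, 9.94 and 10.54 in the middle, without overlap (difference -0.89 ± 0.16 SE, limma adjusted p = 0.0036). SAM2, an S-adenosylmethionine synthetase, had 5.53, 6.11 and 6.67 late and 6.16, 7.41 and 7.85 in the middle, an overlap of the windows (difference -1.13 ± 0.25 SE, limma adjusted p = 0.0108). MET14 (-0.78), SAM1 (-0.73), SAH1 (-0.50), CYS3 (-0.49) and MET10 (-0.41) were the others. SAM1 and SAM2 encode near-identical enzymes, and SAM2 was a whole number of reads in 12 of 14 libraries. The count of falls was 6 to 8 with a library left out, and 0 with the early libraries in the fit, where these genes had stood higher and lower: MET6 ran from 9.02 to 11.09 log2 RPM in the early libraries.

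Proteasome genes fell in part. Of 32 tested 0 rose and 9 fell, with 31 of 32 differences negative and a median of -0.29. PRE1, a subunit of the core particle, had 7.77, 8.002 and 8.32 late and 8.20, 8.58 and 8.91 in the middle, with a small overlap (difference -0.57 ± 0.12 SE, limma adjusted p = 0.00832). RPN7 (-0.54), RPN13 (-0.53) and RPN11 (-0.52), of the regulatory particle, also fell. The list's median gene stood at -0.24 to -0.06 late and at -0.03 to 0.45 in the middle, highest at 135 min, so the windows did not overlap, and the middle values were lower at each later time. Without the 135 min library 9 also fell, and the count was 4 without 150 or 360 min and 5 without 165 or 300 min. With each library set to the same median tested gene 17 fell, 13 fell when the centring used genes seen in all 14, and with the early libraries in the fit 0.

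Some replication genes fell and some genes of cell separation rose. Of 18 G1/S genes 1 rose and 6 fell, with a median of -0.46 and 17 of 18 negative. The median G1/S gene stood at 0.04 at 135 min, 0.59 at 180 min and 0.10 at 225 min. Late it stood at -0.54 to 0.01, so the windows did not overlap but the 135 min value lay close to the late ones. RFA2, a subunit of the replication protein A complex, had 5.31, 5.64 and 6.10 log2 RPM late and 6.02, 6.44 and 6.86 in the middle (difference -0.76 ± 0.16 SE, limma adjusted p = 0.00732). SMC3 (cohesin, -0.97), RNR1 (ribonucleotide reductase, -0.71), POL30 (the sliding clamp, -0.59), RAD27 (a flap endonuclease, -0.47) and CLB5 (an S phase cyclin, -0.46) were the other falls, and CLN3, a G1 cyclin, was higher by 0.52, a call lost in 19 alternatives. All 10 histone genes had negative differences and 3 fell, HTA2, HHF2 and HHT2, with reads shared among copies. The count was 1 without 165, 180, 210, 285, 300, 315, 330 or 360 min. The HTA2 call was lost in 12 alternatives, the HHT2 call in 9 and the HHF2 call in 0. The median histone gene ran from -0.51 at 135 min to 0.48 at 180 min in the middle window. Late it stood at -0.30 to 0.13, so the windows overlapped. Histone slopes were positive in 10 of 10 in the middle window and negative in 9 of 10 late, with 0 called. In 13 daughter-cell genes, which act after mitosis to split the cells, 5 rose and 0 fell, and all 13 differences were positive. SCW11, a glucanase-like wall protein, had 7.17, 7.39 and 7.93 late and 6.04, 6.68 and 7.001 in the middle, without overlap (difference 0.86 ± 0.15 SE, limma adjusted p = 0.00305). DSE2 (0.78), EGT2 (0.60), DSE4 (0.50) and CTS1 (chitinase, 0.49) were the others. The median daughter-cell gene overlapped between windows, at -0.01 to 0.28 late and -0.39 to 0.09 in the middle. It was highest of the middle window at 150 min and lowest at 210 min. Slopes were negative in 11 of 13 in the middle window and positive in 11 of 13 late, so the rise was not steady. With the early libraries in the fit 1 G1/S gene fell and 4 daughter-cell genes rose. G1/S falls numbered 11 without 135 min, 4 without 165 min and 5 without 150, 180, 210, 285, 300, 315 or 360 min. In these bulk libraries, fewer cells in a phase and less RNA per cell cannot be told apart.

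**Figure D4:**
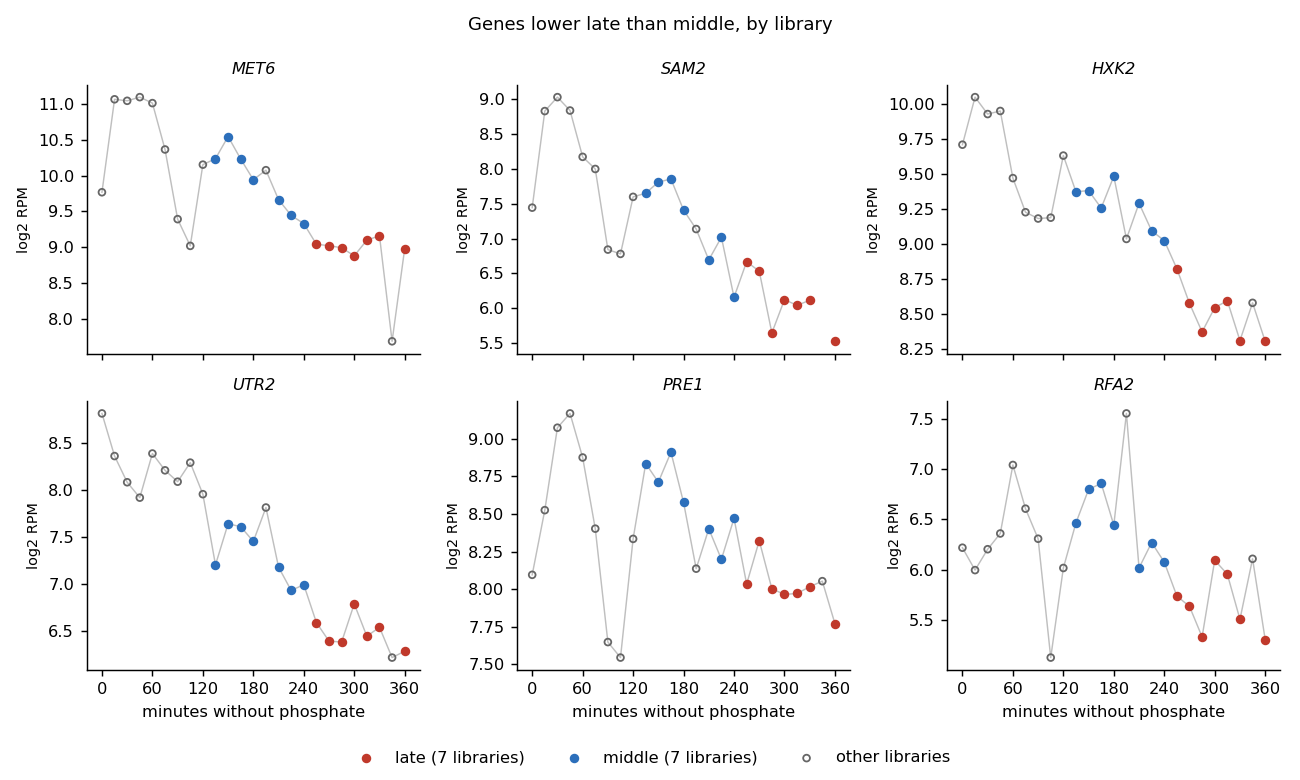
Level in log2 RPM of MET6, SAM2, HXK2, UTR2, PRE1 and RFA2 in each library by minutes without phosphate, with late libraries in red, middle libraries in blue and the others as open circles. MET6, HXK2 and UTR2 have all late points below all middle points, while SAM2, PRE1 and RFA2 overlap.

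Wall and secretory genes added to the falls. UTR2, a chitin-glucan crosslinking enzyme, had 6.28, 6.44 and 6.79 log2 RPM late and 6.93, 7.20 and 7.64 in the middle (difference -0.80 ± 0.13 SE, limma adjusted p = 0.00168). FKS1, a catalytic subunit of glucan synthase, had 6.84, 6.98 and 7.48 late and 7.49, 7.75 and 8.17 in the middle (difference -0.71 ± 0.13 SE, limma adjusted p = 0.004). Neither overlapped, and the frame YLR342W-A beside FKS1 stayed within -0.25 to -0.05 of FKS1 and is not known to be separate. Further falls without overlap were SCW10, DIC1 (mitochondrial dicarboxylate carrier), MGE1 (a cofactor of mitochondrial Hsp70), YIP3, SEN34 (a tRNA splicing subunit), YKT6 (a SNARE), HEK2 and BFR1 (RNA-binding proteins), CHZ1 (a histone chaperone) and AAD16. AAD16 fell by 1.05, and it was a whole number of reads in 1 of 14 libraries. Among 13 cell wall proteins 3 rose (HPF1, TIP1 and SED1) and 3 fell (FKS1, CWP1 and CIS3).

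Ribosome genes gave few calls between the windows. Of 104 ribosome biogenesis genes 0 were called, with 99 of the 104 differences positive and a median of 0.28. The list's median gene ran from -0.75 at 135 min to 0.30 at 210 min in the middle window. In the late window it ran from -0.25 at 270 min to 0.60 at 300 min. The windows thus overlapped, and the spread within them was wider than the difference between them. The late path was not a steady drift: the median gene jumped from -0.04 at 285 min to 0.60 at 300 min. It then fell back to 0.05 at 360 min. Of the 104 genes, 102 had a positive fitted slope common to both windows, and genes that share a profile are not separate readings of it. The median slope was 0.39 log2 units per hour, beside 0.03 over all tested genes, and 0 of these slopes passed the test. With 1 slope for each window, 100 of 104 were positive in the middle and 103 of 104 late. Of 137 ribosomal protein genes 2 rose and 1 fell, with a median of 0.01, a share below the 6.46% and 4.1% of all tested genes. Their levels stood far under 0 min: RPS19A had 7.53 to 7.97 log2 RPM late, 7.05 to 7.70 in the middle and 10.57 at 0 min. In the middle window 115 of the 137 slopes were negative, with 7 called. In the late window 135 of the 137 were positive, with 0 called. Only 26 of the 137 were whole numbers of reads in all 14 libraries. Translation factors (36 tested) and RNA polymerases I and III (21 tested) gave 0 calls between the windows. All 21 RNA polymerase genes had a positive common slope, with a median of 0.31 per hour and 0 called. Across all genes 1375 passed an unadjusted p under 0.05.

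**Figure D5:**
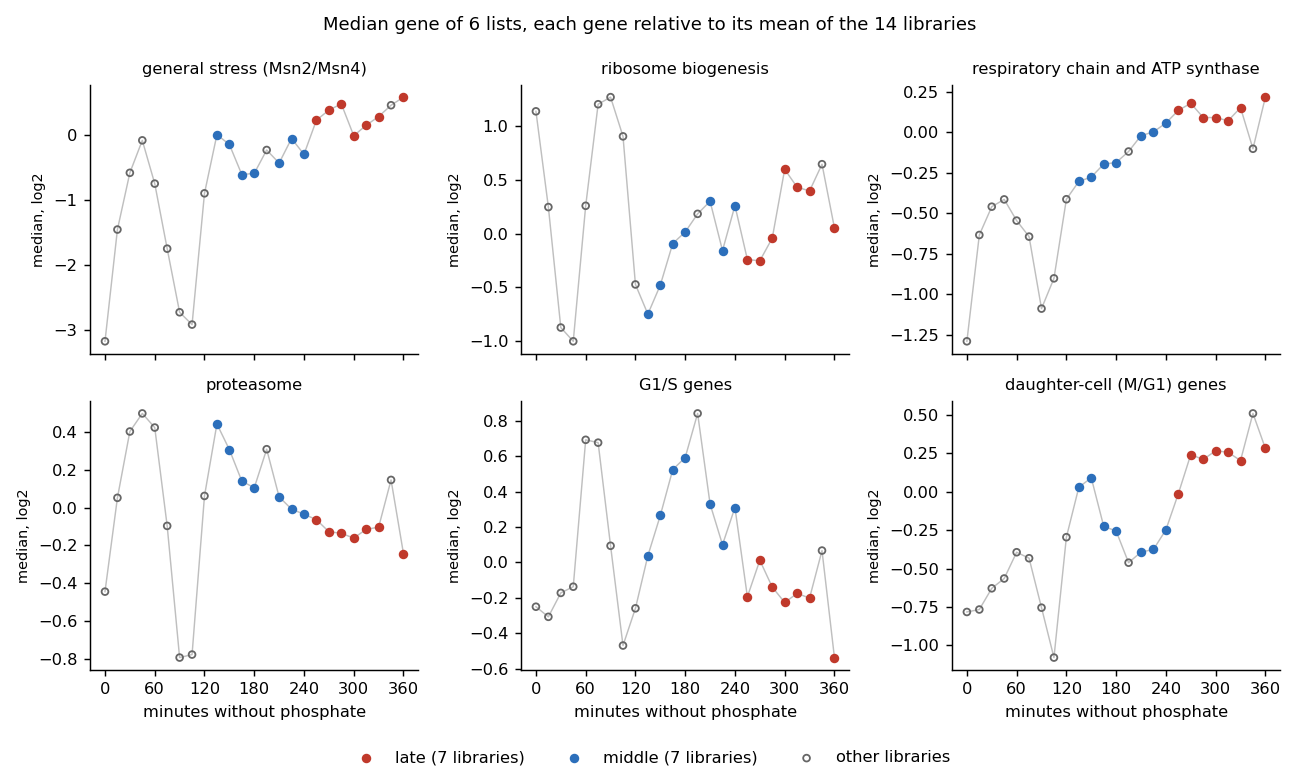
Median gene of 6 lists in each library, in log2 units relative to each gene's mean of the 14 late and middle libraries, by minutes without phosphate, with late libraries in red, middle libraries in blue and the others as open circles. The respiratory median is lowest at 135 min and highest at 360 min of the 14 libraries, the proteasome median is highest at 135 min and lowest at 360 min, and ribosome biogenesis genes swing as widely within the windows as between them.

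Other lists gave few calls. Amino acid synthesis had 2 rises and 6 falls of 46, with CPA1 (arginine pathway, 0.84) and LYS20 (0.47) higher and ARO7 (-0.51), LEU1 (-0.43) and HIS1 (-0.42) among the lower. Purine synthesis had 3 falls of 16 (IMD2, ADE12 and ADE13). Pyrimidine genes gave 2 rises, FUI1 (the uridine permease, 0.65) and URA2 (0.59), and 1 fall, URA1 (-0.65), of 11. Ergosterol synthesis had 1 rise, ERG25, and 3 falls, ERG28, ERG4 and ERG26, of 24, and phospholipid synthesis had 1 rise, PCT1, and 2 falls, CHO1 and PIS1, of 15. ZPS1 was the 1 rise among 9 zinc genes (1.01), and IQG1 the 1 among 13 G2/M genes (0.43). With the early libraries in the fit, 1 amino acid synthesis gene and 0 genes of the purine, pyrimidine, ergosterol, phospholipid and zinc lists were called. Iron regulon genes (17 tested) and unfolded protein response genes (13 tested) gave 0 calls.

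BY4741 is a MATa strain, and markers of other cell types were few and low. Of 7 MATa markers 0 were called. Of 4 MAT alpha markers 2 were tested, and STE3 was lower late, at 3.90 to 4.60 log2 RPM in the 6 late libraries that list it and 4.63 to 5.90 in the middle, close to the limit. Of 11 sporulation markers 1 was tested and was not called. A further 9 genes were listed in at least 5 late and at most 1 middle library and 12 the other way round, all near the limit of 10 reads: the highest of them, YMR085W, had 4.09 to 4.96 log2 RPM in late libraries, beside a limit of up to 4.27 in middle libraries.

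Whether levels still drifted inside the windows was asked with a slope common to both, which the difference of window means does not use. The slope passed the test upwards in 12 genes (0.244% of tested genes) and downwards in 3 (0.0609%; limma). GRE1 rose by 0.81 ± 0.12 SE log2 units per hour (limma adjusted p = 0.00792) and SIP18 by 0.73 ± 0.13 SE (limma adjusted p = 0.0354). YHR033W (0.68), YRO2 and HPF1 (0.57 each) were other risers by both measures. RRM3, a DNA helicase (0.61), ZPR1, an elongation factor chaperone (0.61), SKN1, a glucan synthesis protein (0.61), and BUD27, a prefoldin-like protein (0.92), drifted up within the windows but were not called between them. BUD27 had no value at 135, 165 or 255 min. It stood at 3.69 log2 RPM at 150 min and at the limit of 10 reads, 3.83, at 270 min. The 3 falls were SAM2 (-0.70), AFR1 (-0.69) and ERP3 (-0.51). AFR1 had no value at 210, 300 or 330 min. Among genes higher late 272 of 318 had a positive common slope, and among genes lower late 175 of 202 had a negative one, beside 56.6% positive and 43.4% negative over all tested genes. The slope calls rest on single libraries: without 360 min there were 141 rises and 39 falls, and without 255 min 0 of either. Rises numbered 1 to 5 without 135, 210, 240, 270 or 315 min and 8 without 225 min. Falls numbered 0 without 135, 180, 210, 240, 270 or 315 min, 1 without 225 min, 2 without 285 min and 5 without 330 min.

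With 1 slope for each window, more genes passed in the middle window than in the late one. In the middle window the slope passed upwards in 40 genes (0.813%) and downwards in 36 (0.731%), but in 3 and 2 genes once the 135 min library was left out, and in 8 and 4 without 240 min. Within the late window 3 genes passed upwards (0.0609%), SIP18 at 1.07 per hour, GRE1 at 1.08 and YMR175W-A at 1.07, and 0 genes passed downwards (0%), with 397 at an unadjusted p under 0.05 in either direction. The 3 late slopes were not called without the 255 min or without the 270 min library. No gene passed for a slope difference between the windows, with 514 at an unadjusted p under 0.05 (limma), so the slopes of the windows were not shown to differ. No gene passed for a step between the windows beyond a common drift, with 411 at an unadjusted p under 0.05 (limma). A sudden switch and a gradual drift were therefore not separated for single genes at this number of libraries.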

How the data were processed

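Total RNA from 1 time course was sequenced as cDNA on an Illumina instrument, per the labels' protocols. The authors deposited 1 table of log2 values, which are log2 of reads per 1000000 listed reads (RPM) and not ratios to 0 min, as the sums of the deposited values show. The submitters' processing notes name Bowtie and R64. Versions, annotation, counting tool and treatment of shared reads were not given in the sources used here. Of 6701 rows, 51 had no name and no value and 2 shared a name, which left 6648 names, 5963 of them matched to R64. Read numbers were recovered from the spacing of low values (within 0.02 reads). Of 4379 genes listed in all 14 libraries 3960 (90.4%) were whole reads in each.

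Testing required a value in 5 or more of the 7 libraries on both sides, and missing values stayed missing. Late minus middle differences, common slopes per hour beside a window term, and slopes for each window came from limma version 3.58.1 under R version 4.3.3 (functions lmFit, eBayes), and p-values were adjusted by Benjamini-Hochberg over all tested genes, at a threshold of 0.05. The mean times of the windows are 1.93 h apart. Library measures were compared by an exact permutation test with scipy 1.17.1. The fits were tested on simulated counts drawn independently for each library, which cannot check calls where neighbouring times depend on each other. Alternatives were other scalings, filters, fillings of missing values, pseudocount, trend, weights, added libraries and each library left out.

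Genes were named as the 15 largest non-overlapping calls each way, up to 3 calls each way in each of 41 lists, all PHO regulon members, and the 8 largest calls each way of the slopes. Further called members of a list are named with their values and were chosen after these were seen. The windows, members and lists were chosen with earlier results of these data known. Promoters came from the RefSeq R64 genome.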

Additional observations from a re-analysis of the deposited data

Results flagged for a closer look

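In 301 groups of 7 values examined, 14 had a library apart from the other 6 by more than Dixon's critical value, where chance alone flags about 1 in 20. The 135 min library, the first of the middle window, accounted for 8 of the 14. Its ribosomal protein genes took 8.56% of reads, against at most 5.50% in the other middle libraries, and its 10 most abundant genes took 14.6%, against at least 16.5%. Its levels in log2 RPM were 7.25 for CCP1, 10.77 for TDH1, 7.04 for LYS20, 9.02 for PHO89 and 7.30 for PHO8, each below the other middle libraries, and 7.27 for MDH2, above them. In the middle window ATG19 had 6.04 at 240 min, below the others, and VTC3 had 10.79 at 225 min, below the others. In the late window SEN34 had 5.23 and EGT2 had 7.45 at 255 min, MRPL37 had 7.18 at 300 min and LEU1 had 8.56 at 360 min, each below the other late libraries.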

How the results depend on the processing

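No paired analysis was possible because the labels give no replicate numbers and each library is a time point of its own. Calls higher and lower late were 194 and 354 with each library centred on its median tested gene, and 65 and 44 with high phosphate and early libraries in the fit. Library quality weights gave 334 lower, and adding the 195 and 345 min libraries 131 lower. Leaving out each library gave 189 to 357 higher and 117 to 242 lower. Common slopes, 12 up and 3 down, were 6 and 1 with those shallow libraries added, 12 down when centred on genes listed in all 14, and 0 to 141 up and 0 to 39 down with a library left out. Middle slopes, 40 up and 36 down, gave 25 up with that centring, 3 up and 3 down with the shallow libraries, and 3 to 49 up and 2 to 39 down with a library left out. Late slopes gave 0 to 7 up and 0 to 1 down with a library left out. For the slope difference 1 gene passed upwards among genes listed in all 14, and 0 to 1 with a library left out, and no downward call was made. The step gave 0 calls each way with every library left out. The cause of these shifts was not tested. Of 117 called genes named by rule, 39 kept their call under every alternative, 81 kept it with each library left out and 73 lost it with the early libraries in the fit, and none reversed. Depth limits the genes tested, since those under 10 reads have no value.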
